A study of Mus musculus with 8 samples.

Results

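The genes described here are 51 cell cycle genes, 25 that act in mitosis and 26 that act in DNA replication, taken from a list of names and found by symbol among the 43432 mouse Ensembl identifiers of the deposited counts. All 51 matched 1 identifier each, and 50 passed the filter on low counts. The exception was Fen1, the flap endonuclease that trims Okazaki fragments, with 0 to 3 reads in a library and 12 in all. Of its annotated exon bases, 78.8% are shared with Gm10143 on the opposite strand. The libraries are RNA-seq of lung myofibroblasts from C57BL/6 mice at postnatal day 7. The 4 control libraries (control 1 to control 4) carry the label wildtype, and the other 4 (Fra-2 1 to Fra-2 4) are labelled as Fra-2 transgenic with constitutive Fra-2 expression. The sources used here do not give the promoter of the transgene, the number of animals or the way the cells were isolated.

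Lung myofibroblasts are contractile, matrix-forming mesenchymal cells that populate the growing alveolar septa after birth. A dividing cell first licenses its replication origins by loading the MCM helicase, copies its DNA with polymerases held by the sliding clamp, and then builds a spindle, checks that every chromosome is attached and divides. Transcripts of the replication genes are known to peak around S phase under E2F factors, and those of the mitosis genes in G2 and M phase under the DREAM, B-MYB and FOXM1 complexes. Their summed level in a sample is commonly used as a measure of proliferation.

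Totals ran from 29926239 to 41335957 counts a library, and mitochondrial ribosomal RNA took 0.578% to 7.50% of them. Levels are in CPM, counts scaled to library size with edgeR's TMM factors, with mean ± SD over n = 4 libraries a group, and log2 fold changes are the libraries labelled Fra-2 transgenic over control. Fosl2, which encodes Fra-2, measured 105, 117, 141 and 119 CPM in the controls and 166, 134, 126 and 104 CPM in Fra-2 1 to Fra-2 4, groups that overlap (edgeR adjusted p = 0.888, two-sided exact permutation p = 0.486 where 0.0286 is the smallest possible). Counts of the gene thus did not separate the labels, and every direction below is between libraries labelled Fra-2 transgenic and labelled wildtype. Defining markers of the labelled cell type were abundant: Acta2, smooth muscle actin, measured 3285 ± 416 and 3411 ± 680 CPM, and Pdgfra, the myofibroblast precursor receptor, 1139 ± 156 and 1243 ± 128 CPM. Whether each library is a separate mouse is not stated. Each group held both female and male libraries by Xist and Y-linked genes, so it came from more than a single mouse. The p-values here reflect the spread among these 8 libraries, which may be technical in part.

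No cell cycle gene passed the test between the groups. Of the 50 tested members, 0 were higher and 0 lower by edgeR's quasi-likelihood test at an adjusted p of 0.05, while 0.72% of the 15422 tested genes were higher and 0.298% lower (1.02% in all). Given that background, a count of 0 among 50 says nothing particular about the members. By unadjusted p under 0.05 the count was also 0 of 50, beside 8.71% of all tested genes. DESeq2 and limma-voom, with and without sample weights, called 0 members too. In 0 of the 50 did the groups fail to overlap, beside 5.76% of all tested genes. The smallest adjusted p was 0.725, for Foxm1.

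The fold changes lay close to 1 in both sets. Among the mitosis members 16 of 25 had a positive and 9 a negative log2 fold change, with a median of 0.05. Among the replication members 8 were positive and 17 negative, with a median of -0.04, and the median of all tested genes was -0.01. Single members ran from -0.33 (Cenpe) to 0.25 (Foxm1). The 95% intervals excluded a 2-fold change in either direction for 50 of 50 members, and a 1.5-fold change for 36. Of all 15422 tested genes they did so for 10741 and 7448. The widest interval in folds among the members belonged to Cdt1, at 0.651 to 1.87. The plot of fold changes shows each interval crossing 0.

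**Figure D1:**
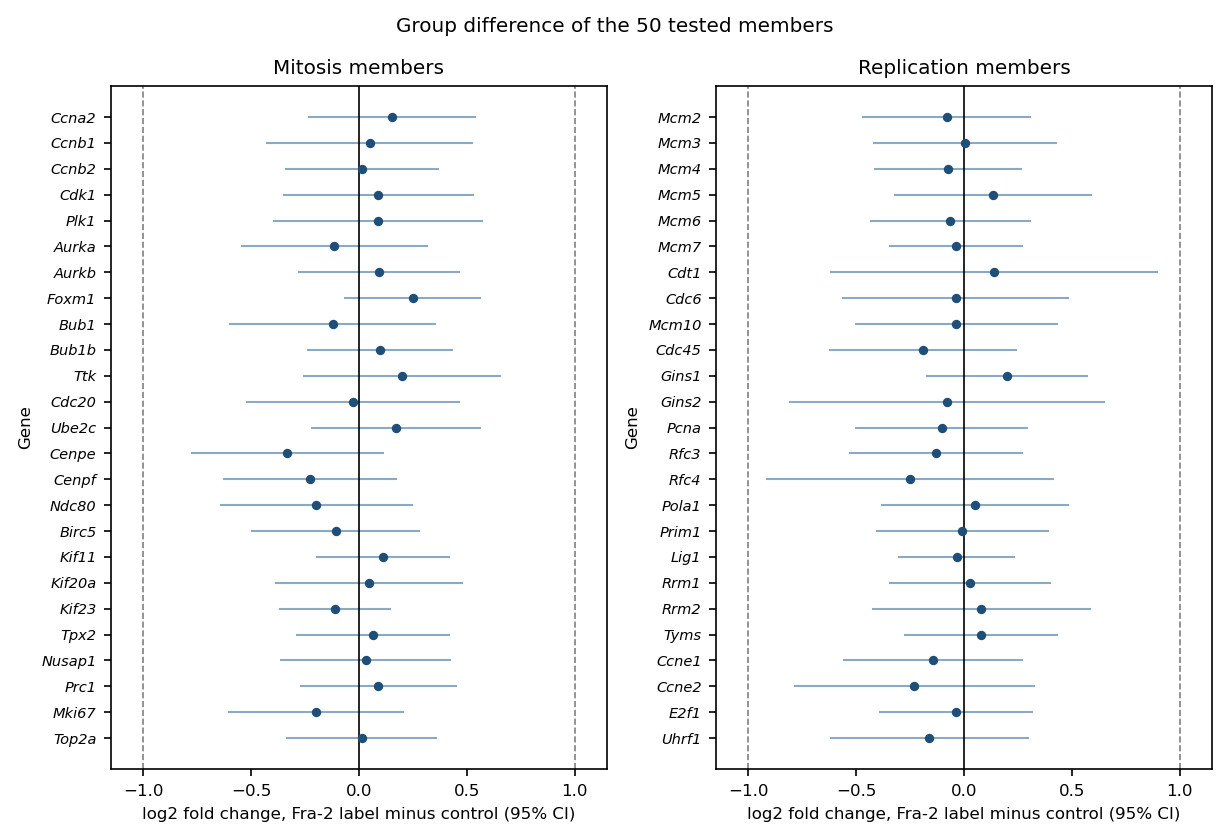
log2 fold change (libraries labelled Fra-2 transgenic minus control) with its 95% interval for 25 mitosis and 25 replication members, fitted by edgeR on 4 against 4 libraries. Dashed lines mark a 2-fold change. The points lie between -0.33 and 0.25, every interval crosses 0 and none reaches 2-fold.

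Summed over the 25 mitosis members, the libraries labelled Fra-2 transgenic held 1087 ± 184 CPM and the controls 1132 ± 190 CPM, a ratio of 0.96. For the 26 replication members the sums were 729 ± 169 and 742 ± 81.0 CPM, a ratio of 0.982. Both differences of the means were far smaller than the SD of either group. Within each group, by contrast, single libraries differed by up to 1.51-fold in the mitosis sum and up to 1.76-fold in the replication sum.

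Fra-2 2 had the lowest cell cycle signal of the 8 libraries. Its mitosis sum was 825 CPM, against 1178, 1101 and 1244 CPM in Fra-2 1, Fra-2 3 and Fra-2 4. Its replication sum was 478 CPM, against 842, 781 and 813 CPM. It was the lowest library of all 8 for 37 of the 50 members, where it was lowest for 17.2% of all tested genes, and it was the highest for 0. Within its group it was the lowest for 44 members (88%, beside 32.2% of all tested genes). The median member stood at 0.652 of the mean of the other 3 libraries of its group, 0.697 for mitosis and 0.565 for replication members, while the median of all tested genes was 0.988. In bulk RNA, fewer cycling cells and less of these transcripts per cell cannot be told apart.

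The highest values were also concentrated in a few libraries. Fra-2 1 was the highest of all 8 for 18 members and Fra-2 4 for 14, where they were highest for 11.7% and 12.6% of all tested genes. By these counts of members, both libraries at the top and the one at the bottom carry the same label. By summed CPM the top libraries were controls, control 2 for mitosis (1278 CPM) and control 4 for replication (847 CPM). In the replication sum Fra-2 1 was close to control 4, at 842 CPM. Without Mki67 the highest mitosis sum was that of Fra-2 4, at 857 CPM against 835 CPM in control 2. Fra-2 3 was highest for 0 members and lowest for 1. Without Fra-2 2, 37 of the 50 log2 fold changes were positive, against 24 with it, and the medians became 0.17 for mitosis and 0.10 for replication members. The median of all genes tested in that fit was -0.02. Since Fra-2 2 was lowest for most members, leaving it out had to raise their fold changes, so the shift is no separate result. The count of called members stayed at 0. Foxm1 and Ccna2 then had unadjusted p of 0.00818 and 0.00951 (edgeR adjusted p = 0.23 and 0.249), and were the 2 of 50 members under 0.05 unadjusted, beside 9.86% of all genes tested in that fit, so that count is no result about the members.

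**Figure D2:**
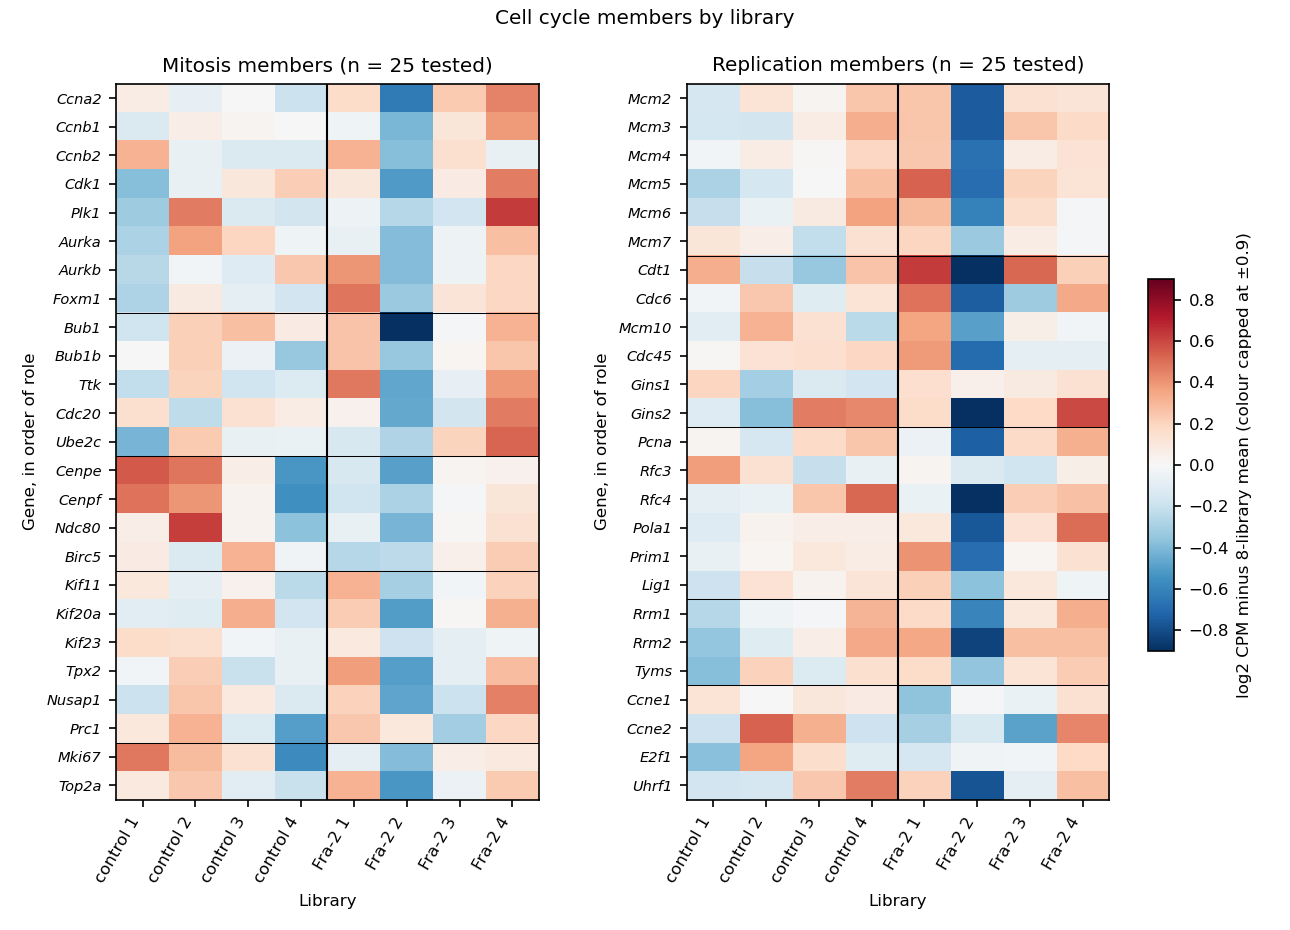
log2 CPM of each tested member minus its mean over the 8 libraries, for 25 mitosis members (left) and 25 replication members (right) in order of role, with a vertical line between control and Fra-2 libraries. Fra-2 2 is the lowest library for 37 of the 50 genes, and Cenpe, Cenpf and Mki67 run opposite to most replication genes among the controls.

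Among the controls, control 4 stood apart in the balance of the 2 sets. The replication sum over the mitosis sum was 0.971 in control 4, and 0.512, 0.567 and 0.673 in control 1, control 2 and control 3. In Fra-2 1 to Fra-2 4 it was 0.715, 0.579, 0.709 and 0.654. Control 4 had the highest replication sum of all 8 libraries, 847 CPM, and the lowest mitosis sum of the controls, 872 CPM against 1271, 1278 and 1108 CPM. Much of that gap came from Mki67 alone, at 244 CPM in control 4 against 506, 442 and 399 CPM. Without Mki67, control 4 was still the lowest control, at 627 CPM against 765, 835 and 709 CPM. It was the highest control for 13 of 25 replication members and the lowest for 2. For mitosis members the order turned, with control 4 the highest control for 2 of 25 and the lowest for 12. Over all tested genes control 4 was the highest control in 30.2% and the lowest in 28.7%.

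**Figure D3:**
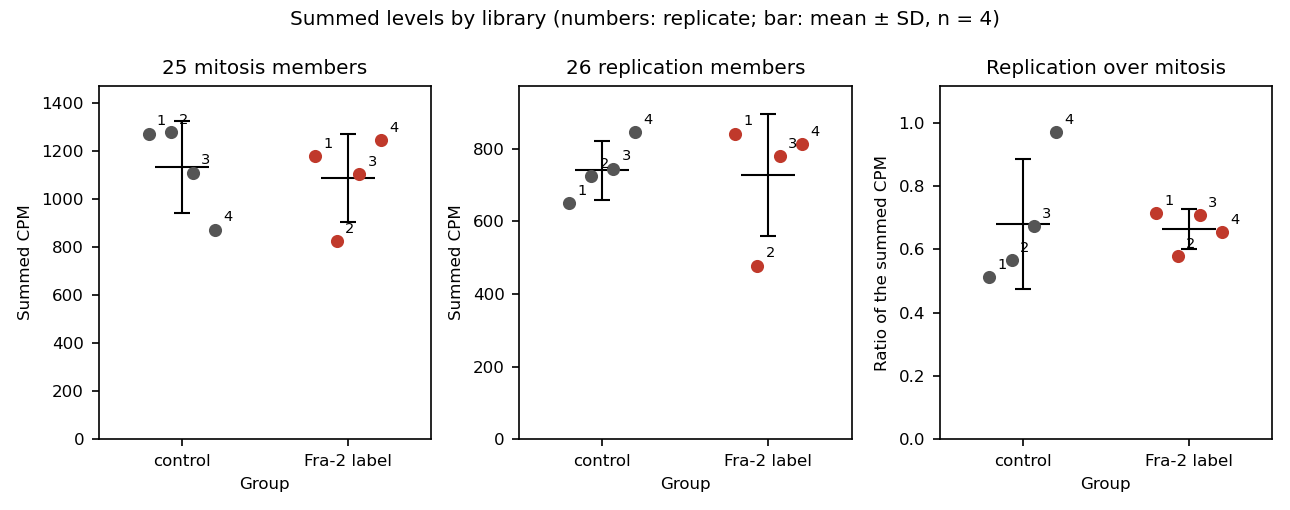
Summed CPM of the 25 mitosis members, summed CPM of the 26 replication members and the ratio of the 2 sums in each library, with the mean ± SD of each group (n = 4). Numbers beside points are replicate numbers. The groups overlap in all 3 panels, Fra-2 2 has the lowest sums at 825 and 478 CPM, and control 4 has the highest ratio at 0.971.

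The members' median biological coefficient of variation in edgeR was 0.197, against 0.201 for all tested genes. Counting error was smaller, with a median of 0.0365 as a share of the mean, since each tested member had at least 43 reads in each library. The highest library exceeded the lowest by 1.28-fold for Kif23 and by 4.17-fold for Cdt1, the least and the most among members, with a median of 1.92-fold.

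The promoters of the 2 sets hold different shares of known cell cycle motifs, which the choice of genes did not use and for which no test was made. RefSeq windows of 300 bases (250 before to 50 after the start, GRCm38.p6) were matched for 42 members, 20 of mitosis and 22 of replication. For mitosis members the RefSeq start lay at most 84 bases (Ccnb1) from the GENCODE M21 start of the gene. Some replication members lay farther, as Mcm7 (539), E2f1 (466) and Cdc6 (350), so the windows of the 2 sets are not placed alike. Ccna2, Aurkb, Foxm1, Kif20a, Tpx2, Mcm4, Gins1, Gins2 and Ccne2 were not matched. Both strands were searched for CCAAT, the box bound by NF-Y, for TTTGAA or TTCGAA, forms of the cell cycle homology region (CHR), and for TTCCCGC or TTGGCGC, forms of the E2F motif. On the other strand CCAAT reads ATTGG, which can share bases with TTGGCGC, and the remaining letters contain no other motif. CCAAT stood in 17 of 20 mitosis windows (85%) and 14 of 22 replication windows (63.6%), beside 37.4% of all 32851 windows. The CHR letters stood in 16 mitosis windows (80%) and 5 replication windows (22.7%), beside 19.2% of all windows. The E2F letters stood in 3 mitosis windows (15%) and 12 replication windows (54.5%), beside 6.81%. CCAAT and CHR letters occurred together in 15 mitosis windows (75%) and 4 replication windows (18.2%), beside 7.52% of all windows. Against 21262 windows of protein-coding genes the shares to compare were 38.2%, 17.6%, 8.69% and 7.11%. A match describes letters and does not show that a factor binds there.

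The 150 bases before the start are shown for 3 mitosis and 2 replication genes whose stretch holds these letters, and for Mki67, which holds all 3 kinds. Capitals mark the matches, read 5′ to 3′ on the gene's strand, and matches on the other strand appear as their reverse complements (ATTGG for CCAAT). Cdk1 is at chr10:69352913-69353062 (minus strand), Cdc20 at chr4:118437344-118437493 (minus), Top2a at chr11:99024190-99024339 (minus), Mki67 at chr7:135716380-135716529 (minus), Mcm6 at chr1:128359706-128359855 (minus) and Rrm1 at chr7:102441545-102441694 (plus), all in GRCm38.p6.
Cdk1: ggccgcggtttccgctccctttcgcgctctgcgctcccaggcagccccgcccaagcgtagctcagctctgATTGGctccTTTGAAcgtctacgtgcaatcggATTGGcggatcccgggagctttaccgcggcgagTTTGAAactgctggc
Cdc20: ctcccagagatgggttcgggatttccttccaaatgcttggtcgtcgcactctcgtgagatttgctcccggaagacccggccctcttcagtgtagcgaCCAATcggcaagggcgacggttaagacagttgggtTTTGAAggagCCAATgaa
Top2a: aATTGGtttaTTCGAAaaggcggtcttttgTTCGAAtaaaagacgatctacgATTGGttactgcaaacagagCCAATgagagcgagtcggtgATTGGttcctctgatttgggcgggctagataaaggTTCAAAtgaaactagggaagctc
Mki67: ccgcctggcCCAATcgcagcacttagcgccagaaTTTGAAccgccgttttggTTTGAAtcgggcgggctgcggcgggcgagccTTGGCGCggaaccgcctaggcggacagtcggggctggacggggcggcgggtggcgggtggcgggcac
Mcm6: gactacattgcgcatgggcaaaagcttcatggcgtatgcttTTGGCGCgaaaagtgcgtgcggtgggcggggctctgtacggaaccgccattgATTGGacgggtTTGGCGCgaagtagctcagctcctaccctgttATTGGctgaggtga
Rrm1: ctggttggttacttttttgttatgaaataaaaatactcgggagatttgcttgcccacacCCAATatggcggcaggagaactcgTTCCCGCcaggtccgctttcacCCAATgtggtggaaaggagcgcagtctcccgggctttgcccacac
Cdk1, Cdc20 and Top2a carry CCAAT beside TTTGAA or TTCGAA. Mcm6 and Rrm1 carry E2F letters beside CCAAT and no CHR letters.

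Mitotic entry is driven by the kinase Cdk1 with cyclins A and B, by Polo and Aurora kinases and by the transcription factor Foxm1. Foxm1 measured 50.3, 64.5, 57.8 and 54.3 CPM in control 1 to control 4. It measured 85.1, 48.5, 66.2 and 69.7 CPM in Fra-2 1 to Fra-2 4, where 3 libraries lay above every control and Fra-2 2 lay below. Its log2 fold change of 0.25 (SE 0.149) was the highest of the members. Ccna2, cyclin A2 and the most abundant of this group per kilobase of exon (13.6 CPM per kb), measured 57.0, 51.8, 54.4 and 47.7 CPM in the controls and 61.1, 35.0, 64.1 and 74.4 CPM in Fra-2 1 to Fra-2 4. It showed the same order, with 3 of these libraries above the controls and Fra-2 2 below (edgeR adjusted p = 0.915 for a log2 fold change of 0.15, SE 0.18). The other 6 genes ran from -0.11 for Aurka to 0.09 for Aurkb. Ccnb1, cyclin B1, was low at 4.23 ± 0.247 and 4.38 ± 0.989 CPM, and its paralog Ccnb2 was at 19.8 ± 3.14 and 20.0 ± 4.01 CPM. Cdk1 itself was at 9.94 ± 1.73 and 10.6 ± 2.77 CPM. Fra-2 2 was the lowest library for both cyclin B genes and Cdk1. Per kilobase of exon Ccnb2 stood at 13.0 and Ccnb1 at 1.02 CPM per kb.

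The spindle checkpoint holds back the anaphase-promoting complex (APC/C) until chromosomes are attached. Its kinase gene Ttk measured 7.07, 9.49, 7.27 and 7.55 CPM in the controls and 11.4, 5.96, 7.81 and 10.8 CPM in Fra-2 1 to Fra-2 4. Fra-2 1 and Fra-2 4 lay above all controls and Fra-2 2 below them (edgeR adjusted p = 0.897 for a log2 fold change of 0.20, SE 0.214). Ube2c, the ubiquitin-conjugating enzyme of the APC/C, measured 17.9, 28.1, 22.8 and 23.0 CPM in the controls and 21.6, 19.8, 27.5 and 34.4 CPM in Fra-2 1 to Fra-2 4. Here control 1 was lowest and Fra-2 4 highest (edgeR adjusted p = 0.897 for a log2 fold change of 0.17, SE 0.184). For Bub1, a checkpoint kinase, Fra-2 2 held 8.31 CPM and the other libraries 14.0 to 19.7 CPM. Bub1b and the APC/C activator Cdc20 had log2 fold changes of 0.10 and -0.03.

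The 4 members in the role of kinetochore and chromosomal passenger genes each had their highest value in a control. Related genes outside this role did not all do so, as Bub1 was highest in Fra-2 4 and Cenpa in Fra-2 3. Cenpe, the kinetochore motor CENP-E, measured 87.8, 83.4, 62.4 and 41.5 CPM in the controls and 54.1, 42.5, 60.7 and 61.5 CPM in Fra-2 1 to Fra-2 4. Control 1, 2 and 3 lay above all libraries of the other group, and control 4 lay below all of them (edgeR adjusted p = 0.748 for a log2 fold change of -0.33, SE 0.206). Cenpf, a large kinetochore and nuclear matrix protein gene, also had control 4 lowest and control 1 highest, at 70.5, 66.1, 51.5 and 34.3 CPM in the controls and 44.5, 41.3, 49.9 and 54.2 CPM in the others. Ndc80, the microtubule-binding subunit of the outer kinetochore, and Birc5, survivin of the chromosomal passenger complex, had log2 fold changes of -0.20 and -0.11. All 4 log2 fold changes in this role were negative, and none passed.

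Mki67 (ENSMUSG00000031004, chromosome 7, 135689784 to 135716361 in GRCm38), the proliferation marker Ki-67 that coats mitotic chromosomes, was the most abundant member at 37.0 CPM per kb. It measured 506, 442, 399 and 244 CPM in control 1 to control 4, and 343, 277, 378 and 387 CPM in Fra-2 1 to Fra-2 4. The controls spanned the whole range, with control 4 the lowest of all 8 libraries and control 1 the highest (edgeR adjusted p = 0.883 for a log2 fold change of -0.20, SE 0.188). Top2a, the topoisomerase that untangles replicated chromosomes, had its lowest value of 102 CPM in Fra-2 2 and its highest of 183 CPM in Fra-2 1. Without Mki67 the mitosis sum was 734 ± 88.0 and 740 ± 142 CPM.

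Without control 4, Cenpe, Cenpf and Mki67 had log2 fold changes of -0.51, -0.40 and -0.37, with unadjusted p of 0.00466, 0.0113 and 0.012 and edgeR adjusted p of 0.158, 0.231 and 0.236. They were the 3 of 50 members under 0.05 unadjusted in that fit, beside 11% of all genes tested in it, and 0 passed, so the count does not stand out from all genes. All 3 are long in the union of their annotated exons, at 8620, 15433 and 10061 bases. This union can exceed the length of any single transcript. Of the 7 members with over 8000 bases, control 4 was the lowest control for 5 and the highest for 2 (Rrm1 and Pola1), and of the 43 shorter members it was the lowest for 9 and the highest for 13. Among all tested genes, those over 8000 bases had a median of -0.0572 in control 4 (log2 CPM minus the 8-library mean) and those of up to 2000 bases one of 0.104. For the long genes the other libraries had medians of -0.00616 to 0.0228. For the short genes control 2 was close to control 4, at 0.0985, and for the long genes control 2 stood at 0.0102. The part of gene length in the low values of control 4 was not tested.

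Spindle motors pull chromosomes apart and, with the central spindle, set the plane of division. Kif23, the MKLP1 kinesin of the central spindle, measured 30.3, 29.8, 26.5 and 25.7 CPM in the controls and 28.6, 23.7, 25.5 and 26.2 CPM in Fra-2 1 to Fra-2 4, all 8 libraries within 1.28-fold (edgeR adjusted p = 0.903 for a log2 fold change of -0.11, SE 0.121). Tpx2, the Aurora A activator and the most abundant of this group per kilobase, measured 53.6, 63.3, 47.3 and 51.9 CPM in the controls and 70.5, 38.5, 51.2 and 65.9 CPM in Fra-2 1 to Fra-2 4. Fra-2 1 was again at the top and Fra-2 2 at the bottom (log2 fold change 0.07, SE 0.167). Kif11, the bipolar spindle motor, Kif20a, Nusap1 and Prc1, the central spindle bundler, had log2 fold changes of 0.11, 0.05, 0.03 and 0.09. In Prc1 control 4 was the lowest library, at 26.02 CPM, and Fra-2 2 held 39.1 CPM.

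All 6 subunits of the MCM2-7 helicase, which unwinds DNA at the fork, were lowest in Fra-2 2. Mcm4, the most abundant per kilobase at 18.1 CPM per kb, measured 62.8, 66.8, 64.2 and 72.6 CPM in the controls and 75.7, 40.03, 66.9 and 70.0 CPM in Fra-2 1 to Fra-2 4. Mcm5 measured 22.0, 23.9, 26.8 and 32.4 CPM in the controls and 38.7, 16.6, 30.7 and 29.2 CPM in Fra-2 1 to Fra-2 4. The groups overlapped for both (log2 fold changes -0.08 with SE 0.16 and 0.13 with SE 0.213). Summed over the 6 subunits, the controls held 254, 275, 282 and 335 CPM and the others 338, 176, 308 and 296 CPM. The sum of Fra-2 2 lay below those of the other libraries, which kept within 1.33-fold of each other, and the group means were 287 ± 34.3 and 279 ± 71.1 CPM. Mcm2, Mcm3, Mcm6 and Mcm7 had log2 fold changes of -0.08, 0.00482, -0.06 and -0.04.

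Origin licensing needs Cdt1 and Cdc6, and firing needs Mcm10, Cdc45 and the GINS complex. Gins1, a GINS subunit with the smallest p and the highest level per kilobase of this group, measured 7.99, 5.65, 6.38 and 6.197 CPM in the controls and 7.76, 7.23, 7.40 and 7.69 CPM in Fra-2 1 to Fra-2 4. Fra-2 2 was not low here, and control 1 was the highest library (edgeR adjusted p = 0.864 for a log2 fold change of 0.20, SE 0.175). Gins2, of the same complex, had 3.66 CPM in Fra-2 2 and 7.13 to 14.1 CPM elsewhere. For Gins2, 67.3% of exon bases are shared with Gse1 on the opposite strand, and their reads cannot be told apart without strand. Cdt1 had 1.46 CPM in Fra-2 2 against 3.10 to 6.11 CPM in the other libraries. Cdc6, Mcm10 and Cdc45 had log2 fold changes of -0.04, -0.04 and -0.19, each with Fra-2 2 lowest.

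At the fork, primase and polymerase alpha start the strands, replication factor C loads the PCNA clamp, and Lig1 joins Okazaki fragments. Lig1, at 22.6 CPM per kb the most abundant replication member, measured 84.4, 105, 98.1 and 104 CPM in the controls and 111, 74.3, 103 and 93.5 CPM in Fra-2 1 to Fra-2 4. Fra-2 2 was lowest and Fra-2 1 highest (edgeR adjusted p = 0.98 for a log2 fold change of -0.03, SE 0.126). Rfc4, a subunit of the clamp loader, measured 2.73, 2.77, 3.44 and 4.15 CPM in the controls and 2.77, 1.37, 3.37 and 3.47 CPM in Fra-2 1 to Fra-2 4. Its low level in Fra-2 2 rests on 43 reads (edgeR adjusted p = 0.925 for a log2 fold change of -0.25, SE 0.311). Pcna measured 24.0 CPM in Fra-2 2 and 36.0 to 50.0 CPM in the others. Pola1, Prim1 and Rfc3 had log2 fold changes of 0.05, -0.00781 and -0.13.

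Ribonucleotide reductase, of which Rrm1 and Rrm2 encode the subunits, and thymidylate synthase (Tyms) supply nucleotides. Rrm2, the subunit whose level rises in S phase, measured 38.8, 45.7, 51.5 and 62.6 CPM in the controls and 62.9, 27.7, 59.6 and 59.7 CPM in Fra-2 1 to Fra-2 4. It separated Fra-2 2 from the other 3 of its group, which lay within 59.6 to 62.9 CPM (edgeR adjusted p = 0.971 for a log2 fold change of 0.08, SE 0.233). Tyms measured 16.5, 24.8, 19.7 and 23.8 CPM in the controls and 24.1, 16.8, 23.4 and 25.2 CPM in Fra-2 1 to Fra-2 4, with control 1 and Fra-2 2 alike at the low end (edgeR adjusted p = 0.956 for a log2 fold change of 0.08, SE 0.167). Rrm1 had a log2 fold change of 0.03.

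Cyclin E and E2F drive entry into S phase. Ccne2, cyclin E2, measured 4.04, 6.67, 5.75 and 4.03 CPM in the controls and 3.72, 4.17, 3.28 and 6.25 CPM in Fra-2 1 to Fra-2 4, where Fra-2 3 was the lowest (edgeR adjusted p = 0.91 for a log2 fold change of -0.23, SE 0.261). Ccne1 was lowest in Fra-2 1 and E2f1, the activating E2F, in control 1. Uhrf1, which guides the maintenance of DNA methylation behind the fork, measured 25.6, 25.98, 34.3 and 39.9 CPM in the controls and 33.4, 16.9, 27.2 and 34.9 CPM in Fra-2 1 to Fra-2 4. Fra-2 2 was lowest and control 4 highest (edgeR adjusted p = 0.93 for a log2 fold change of -0.16, SE 0.214).

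Cell cycle genes outside the list were counted over all genes tested in edgeR. Of 50 other mitosis genes 0 rose and 0 fell, of 45 other replication genes 0 and 0, and of 12 G1 cyclins and kinases 0 and 0, with medians of -0.04, -0.08 and -0.09 in log2. By unadjusted p under 0.05 the counts were 2, 2 and 0, beside 8.71% of all tested genes, a background that also holds for the lists of inhibitors and regulators described next. Ckap5, a microtubule polymerase and the most abundant other mitosis gene, measured 121 ± 9.79 and 128 ± 9.92 CPM. Dnmt1, the maintenance DNA methyltransferase, measured 110 ± 10.8 and 114 ± 22.3 CPM, and Ccnd2, cyclin D2, 540 ± 51.2 and 472 ± 27.9 CPM. Fra-2 2 was the lowest library for 32 of the 50 other mitosis genes, 28 of the 45 other replication genes and 6 of the 12 G1 genes.

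CDK inhibitors, RB-family proteins and p53 targets hold the cycle back. The list of RB, E2F and DREAM regulators also includes activating E2F factors and B-MYB, so it is not a list of brakes alone. Of 6 tested CDK inhibitor genes, 0 rose and 0 fell, with 1 under 0.05 unadjusted. The most abundant, Cdkn1c, which encodes p57, measured 78.2, 99.2, 88.3 and 87.0 CPM in the controls and 64.1, 62.3, 74.1 and 68.6 CPM in Fra-2 1 to Fra-2 4. The groups do not overlap, and the difference did not pass (edgeR adjusted p = 0.125 for a log2 fold change of -0.39, SE 0.105). Cdkn2a, which encodes p16 and p19Arf, was not tested, with 17 reads in all, of which 16 were in Fra-2 2. Of 18 RB, E2F and DREAM regulators 0 rose and 0 fell, with 0 under 0.05 unadjusted and Rbbp4 the most abundant at 123 ± 22.8 and 130 ± 15.3 CPM. Of 19 p53 targets and antiproliferative genes 0 rose and 0 fell, with 3 under 0.05 unadjusted and Plk2, a p53 target kinase, at 294 ± 32.1 and 287 ± 14.3 CPM. In Fra-2 2 these last 2 lists and the inhibitors had medians of -0.13, -0.03 and -0.12 (log2 CPM minus the 8-library mean), against -0.39 for mitosis and -0.68 for replication members. Fra-2 2 was the lowest library for 1 of 6 inhibitors, 2 of 18 regulators and 4 of 19 p53 and antiproliferative genes.

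**Figure D4:**
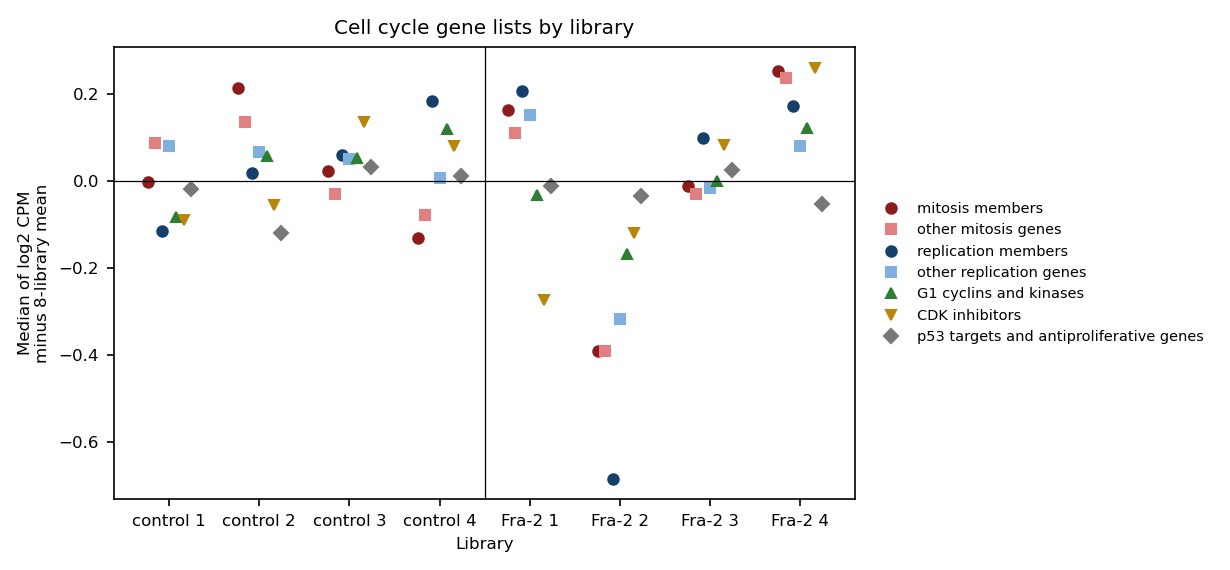
Median over the tested genes of each list of log2 CPM minus the 8-library mean, for each library. In Fra-2 2 the mitosis members stand at -0.39 and the replication members at -0.68, the other mitosis and replication genes at -0.39 and -0.32, and the p53 targets and antiproliferative genes at -0.03.

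Markers of other cells varied between libraries in another order. Summed CPM of 15 leukocyte markers ran from 82.1 (control 1) to 119 (Fra-2 1), with 111 in Fra-2 2. In each marker list 0 genes were at 0 reads in every library. The 16 epithelial markers ran from 62.9 (control 1) to 236 CPM (Fra-2 4), the 12 endothelial markers from 66.1 (control 1) to 102 CPM (Fra-2 4), the 6 mesothelial markers from 8.35 (control 1) to 17.0 CPM (Fra-2 1) and the 7 erythroid markers from 17.9 (control 1) to 151 CPM (control 3). The most abundant were Lyz2, Sftpc, Cdh5, Rspo1 and Hbb-bs. In Fra-2 2 these sums were 157 CPM for epithelial, 85.1 for endothelial, 8.82 for mesothelial and 46.1 for erythroid markers, so that it was the lowest library for none of these 5 lists. Of 16 lung myofibroblast markers Fra-2 2 was the lowest library for 3, beside 17.2% of all tested genes. Their sum was lowest there, at 20516 CPM of a range up to 23526 CPM, but close to control 2 at 20546 CPM. Of those 16, 1 rose (Stc1, edgeR adjusted p = 0.0302) and 1 fell (Enpp2, edgeR adjusted p = 0.0447), beside 0.72% and 0.298% of all tested genes, and 6 had an unadjusted p under 0.05, beside 8.71%. Summed pericyte markers were also lowest in Fra-2 2, at 3121 of up to 4108 CPM, with Postn the most abundant. Fra-2 2 was, however, the lowest library for only 1 of the 10 pericyte markers. Their median there was 0.13 (log2 CPM minus the 8-library mean), so the low sum does not describe most of them. Genes induced by tissue dissociation, led by Egr1, ran from 4720 (control 1) to 7022 CPM (control 3), and neural and Schwann markers, led by Ncam1, from 28.8 (control 1) to 49.3 CPM (Fra-2 3). The part of other cells in the differences between libraries was not tested.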

How the data were processed

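The values deposited by the authors are whole-number counts, not normalized, for 43432 Ensembl identifiers of mouse. Per the labels' protocols, mRNA was selected on Dynabeads and amplified as cDNA (Ovation V2) ahead of a Nextera XT preparation. The submitters' processing notes name GRCh38, a human build, although the identifiers are those of mouse genes, and no source used here gives the aligner or counting tool. Symbols, positions and exon lengths came from GENCODE M21 (GRCm38), and 42462 identifiers had a symbol. Groups came from titles and genotype labels.

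Counts were fitted as deposited in R 4.3.3 with edgeR 4.0.16: filterByExpr (minimum count 10, minimum total 15, 15422 genes kept), TMM, robust dispersions, the quasi-likelihood F-test, two-sided, and Benjamini-Hochberg adjustment over all genes tested. CPM per kb divides by the union of annotated exons. The fit was tested on simulated data. Replicates of a group differed by a chi-square of 39.7 or more per gene and were kept apart. Alternatives used DESeq2 1.42.0, limma 3.58.1, other scalings and filters, a replicate block, a sex term and single libraries left out. Fits without mitochondrial ribosomal RNA and the split by exon length were chosen after seeing the data. The members and lists were chosen with earlier results of these data known. Genes with values in each library are, per role, the member with the smallest p and the one highest per kilobase; Cenpf was added after its values were seen. From pathway lists, called genes or the most abundant are named, and others were chosen after their values were seen. The 10 genes nearest in pattern had a mean of at least 5 CPM. No kit step named in the protocols marks strand, and 8 members share at least 10% of exon bases with another gene (Ccna2, Ccne2, Fen1, Gins2, Kif20a, Prc1, Rfc4 and Ube2c), so their counts are uncertain.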

Additional observations from a re-analysis of the deposited data

Results flagged for a closer look

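In each group of 4 libraries, a library was singled out where its gap to the nearest other exceeded Dixon's 95% critical share of the group's range. This was met by 6 of 108 groups checked, where chance gives about 1 in 20. Fra-2 2 was the low library in 3 of them: Mcm3 at 30.6 CPM (others 58.0 to 61.3), Rrm2 at 27.7 CPM (others 59.6 to 62.9) and the replication sum at 478 CPM (others 781 to 842). Control 1 was high for Ccnb2 at 24.5 CPM (others 18.0 to 18.7) and low for Pola1 at 20.7 CPM (others 23.0 to 23.4). Control 3 was high for Kif20a at 10.6 CPM (others 7.49 to 7.89).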

How the results depend on the processing

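The count of called members stayed at 0 in each direction under all 19 alternatives, the smallest adjusted p being 0.158 (Cenpe without control 4). The median log2 fold change ran from -0.07 to 0.17 for mitosis and from -0.11 to 0.10 for replication members when single libraries were left out, and the ratios of summed CPM from 0.893 to 1.04 and from 0.933 to 1.10. Over all tested genes, 111 were higher and 46 lower, moving to 272 and 97 in DESeq2, to 229 and 80 in limma-voom with sample weights, and to 50 to 153 and 22 to 52 without single libraries. The replicate block gave 137 and 53, and 0 members. Same-numbered libraries had deviations correlated at 0.00177 to 0.31, and 3 of the 4 controls correlated best with the library of their own number, a hint of pairing in the data. Since 2 of the 4 correlations were under 0.1 and no label says what a number shares, the numbers were not taken as pairs. Of the 17 members named by the rule per role, which leaves out Cenpf, 7 changed sign somewhere, all uncalled. Lig1 was 0.00338 with weighted limma-voom. Leaving out single libraries gave log2 fold changes from -0.113 to 0.069 for Lig1 (0.00553 without control 2), from -0.0236 to 0.195 for Tyms, from -0.0184 to 0.293 for Rrm2 (-0.0147 without Fra-2 1), from -0.0551 to 0.213 for Tpx2 (-0.0149 without Fra-2 4), from -0.0387 to 0.325 for Mcm5, from -0.172 to 0.0911 for Mcm4 and from -0.282 to 0.0199 for Uhrf1. The counts over all genes fell most without control 2 (50 higher, 26 lower), Fra-2 1 (54 and 22), control 3 (67 and 23), Fra-2 3 (50 higher) and Fra-2 4 (72 higher). Below 2-fold, changes can be missed with 4 libraries a group.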

Other observations

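Each group held 2 female and 2 male libraries, judged by Xist and 4 Y-linked genes. With group as a term, 0 of the 50 members differed between the sexes (edgeR quasi-likelihood test, adjusted p), beside 5 of all 15422 tested genes. Given that background, the count of 0 says nothing particular about the members. Of the 50, 1 had an unadjusted p under 0.05, beside 2.02% of all tested genes. The interaction of sex and group passed for 0 members and 0 genes, with 3 members and 1.91% of genes under 0.05 unadjusted. The mitosis sum was 1166 ± 81.9 CPM in the female and 1053 ± 237 CPM in the male libraries. The replication sum was 773 ± 51.7 CPM in the female and 697 ± 169 CPM in the male libraries (n = 4 each). Fra-2 2 and control 4 are both male, as are control 1 and Fra-2 4, so the male libraries span the wider range in both sums.

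Genes with the library pattern nearest to the median mitosis member were sought among 9680 others, by the root-mean-square difference of log2 deviations over the 8 libraries. The nearest 10 were Pde3b, Zfp715, Atp13a3, Vcan, Zc3hav1, Nr1d2, Nepro, Parpbp, Afap1 and Rrp1b, at 0.0608 to 0.096, and none is in a list used here. The mitosis members themselves stood at 0.086 to 0.293 from their median. The 10 genes were picked as the closest of 9680, so their small distances follow from the choice. Vcan, the matrix proteoglycan versican, measured 1615, 1691, 1642 and 1566 CPM in the controls and 1698, 1183, 1568 and 1709 CPM in Fra-2 1 to Fra-2 4. Its low value in Fra-2 2 follows from the choice by pattern and is no separate result. For the replication members, a search added after their values were seen, the nearest was Lrrc40 at 0.0361, and 2 of the nearest 10, Bub3 of the spindle checkpoint and Dnmt1, are in the lists of other cell cycle genes.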
